A study of Mus musculus with 11 samples.

Results

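The regions described here are stretches of the mouse autosomes in which intervals were listed without an antibody, or with an antibody whose target the cells lacked. They were formed by joining every touching or overlapping autosomal interval of 3 deposited lists, namely SA1 immunoprecipitation from SA1-null cells (78 autosomal intervals) and the input libraries named Input (353) and InputMEFs (391). Joining gave 615 regions, out of 57669 merged autosomal positions over all 10 lists of the series. The regions were chosen by the listed intervals of these lists, which are measured values, so their number, width and overlap are a description and were not tested. The cells were untreated mouse embryonic fibroblasts (MEFs) taken at stage E12.5 on a C57BL/6 x 129 Sv background, either SA1-null or wild type, and were grown in DMEM with 20% fetal bovine serum. Chromatin immunoprecipitation with sequencing (ChIP-seq) was done with antibodies to SA1, SA2, SMC1 and SMC3 in both genotypes, and both inputs are DNA pooled over wild-type and SA1-null cells. Of the 11 samples, 9 are immunoprecipitations and 2 are inputs. Each list stands for 1 library, except SMC1 in SA1-null cells, whose list takes 2 replicates together.

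Cohesin is a protein ring that keeps replicated chromatids paired until mitosis and helps to fold chromatin into loops. SMC1 and SMC3 form its arms, and each ring of somatic cells carries either SA1 or SA2. An input library is chromatin that was sheared and sequenced without immunoprecipitation. Its reads pile up, as is well known for short-read data, where the assembly holds fewer copies of a sequence than the genome does (satellite repeats, ribosomal DNA, recent segmental duplications) and, more weakly, where open chromatin shears easily. Intervals of an antibody in cells that lack its target serve as a second kind of background. Peaks of other antibodies that fall in such places cannot be read as binding from position alone.

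No list gives a height, a score or a count, so sequencing depth is unknown and every value below is a number, width or position of listed intervals. The immunoprecipitation lists held between 6260 (SA2, SA1-null) and 46098 (SMC1, SA1-null) autosomal peaks. SA2 in both genotypes and SA1 in wild-type cells had been called against Input. SMC1 and SMC3 in both genotypes, and SA1 in SA1-null cells, had been called against InputMEFs. Positions are in mm9 and 1-based.

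The regions were mostly short, with a few long ones. Their median width was 588 bp (quartiles 454 and 823.5 bp), the shortest was 271 bp and the longest 10631 bp. Together they covered 519.774 kb, or 0.0216% of the 2407 Mb between the first and last listed autosomal interval. The 115 regions of at least 1000 bp (18.7%) held 46.1% of the covered bases. In the lists themselves, SA1-null SA1 intervals had a median of 762.5 bp, against 536 bp for Input and 621 bp for InputMEFs. The 10 widest regions covered 55.9 kb, and 3 of them, including the first and second, lay in a single stretch of chromosome 3 that is described at the end. The others included chr17:39979644-39986053 (6410 bp, both inputs), chr11:3000001-3005109 (5109 bp, both inputs), chr1:24618259-24623143 (4885 bp, Input alone) and chr8:19938140-19942583 (4444 bp, InputMEFs alone). The tenth region was 4180 bp wide and the next, also in the chromosome 3 stretch, 3819 bp.

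The 3 lists shared a minority of the regions. A single list held 425 regions, 2 lists held 179 and all 3 held 11, so that 190 regions (30.9%, 95% Wilson interval 27.4 to 34.7%) were shared. SA1-null SA1 alone held 44 regions, Input alone 157 and InputMEFs alone 224. The shared classes were SA1-null SA1 with Input (23 regions), both inputs (156) and all lists (11). No region held SA1-null SA1 and InputMEFs without Input. Leaving out 1 list changes this share by construction, to 8.56% without InputMEFs and 2.40% without Input, and the number of regions without InputMEFs was 397.

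**Figure D1:**
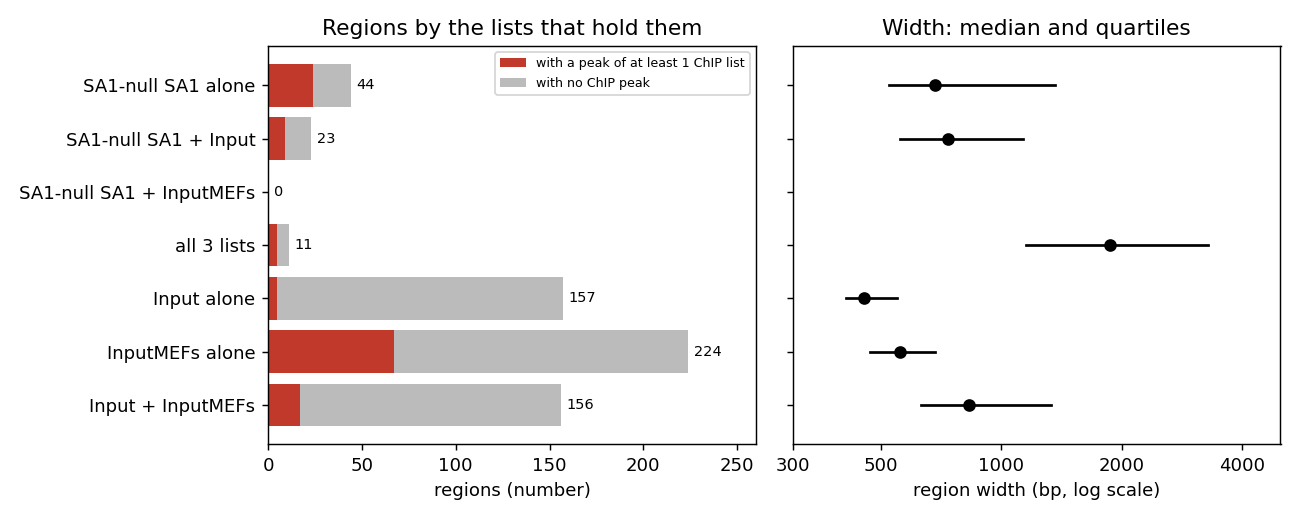
Left, number of regions by the lists that hold them, split into regions with and without a peak of at least 1 ChIP list. Right, the median width of each class (point) and its quartiles (line) on a log scale. InputMEFs alone made the largest class, with 224 regions, and the 11 regions of all 3 lists were the widest class in the median, at 1866 bp.

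The SA1-null SA1 intervals overlapped the input they had not been called against more often than their own. Of 78 SA1-null SA1 intervals, 34 overlapped Input (43.6%, interval 33.1 to 54.6%) and 11 overlapped InputMEFs (14.1%, interval 8.06 to 23.5%). As a share of the inputs this was 34 of 353 Input intervals (9.63%) and 11 of 391 InputMEFs intervals (2.81%). All 11 also overlapped Input. Calling against InputMEFs can remove intervals where InputMEFs itself is high, and nothing did the same for Input. Part of this order can follow from the calling, which was not tested. The inputs shared 173 Input intervals (49.0% of that list) and 167 InputMEFs intervals (42.7% of that list). Where they overlapped, the ends lay close together. The common part took a median of 76.7% of the joint length for an Input interval and its best InputMEFs partner, and 81.1% for an SA1-null SA1 interval and its Input partner. Shared regions were wider than those of a single list, with medians of 833.5 and 522 bp, and a wider region has more room for a second list. Of the 207 joins, none was by mere touching, the smallest overlap was 176 bp and the median overlap 644 bp. Just outside the rule, the closest unjoined neighbours lay 5, 12 and 13 bp apart, and 14 gaps were at most 100 bp.

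Almost as many regions lay in clusters as alone. With neighbours chained at up to 100 kb, 274 regions (44.6%, interval 40.7 to 48.5%) fell into 55 clusters and 341 were lone. Gaps ran from a few bp to 33.0 Mb, with a median of 1115 kb and a lower quartile of 8.095 kb. Of the clusters, 27 were pairs and 19 held 5 or more regions (188 regions). A neighbour from the same list lay within 10 kb for 53.8% of SA1-null SA1 intervals, 34.0% of Input intervals and 35.8% of InputMEFs intervals. In the ChIP lists, which were all over 10 times as long, the shares were 10.1% for SA1-null SA2, 9.01% for wild-type SA2 and 38.0% for wild-type SA1. They were 56.3% for SA1-null SMC1, 36.8% for wild-type SMC1, 47.6% for SA1-null SMC3 and 27.0% for wild-type SMC3. A longer list has more neighbours within a given distance, so these shares also depend on list length. Clustered regions were somewhat wider than lone ones, with medians of 664.5 and 535 bp. Of the 55 clusters, 13 held intervals of 1 list, 34 of 2 lists and 8 of all 3.

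The 5 clusters with the most intervals held 108 regions (17.6%) and 156 of the 822 intervals. The largest, chr8:19702994-20033162, spanned 330 kb with 47 regions from 58 intervals. It was chiefly an InputMEFs cluster, with 46 InputMEFs and 12 Input intervals and none of SA1-null SA1. The second, chr5:14900704-15197436, spanned 297 kb with 25 regions, and there Input gave 24 intervals and InputMEFs 18. The third, chr9:2999884-3038653, was compact, with 15 regions over 38.8 kb that covered 38.1% of its span. Input gave 15 intervals and InputMEFs 13 there, and 13 of the 15 regions were shared. The last 2 were chr1:87377848-87523050 (10 regions) and chr4:146609261-146961278 (11 regions). None of these 5 held an SA1-null SA1 interval, although 19 of all 55 clusters did. In the chromosome 9 cluster no ChIP list had a peak, and 6 of the 47 regions on chromosome 8 had one.

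**Figure D2:**
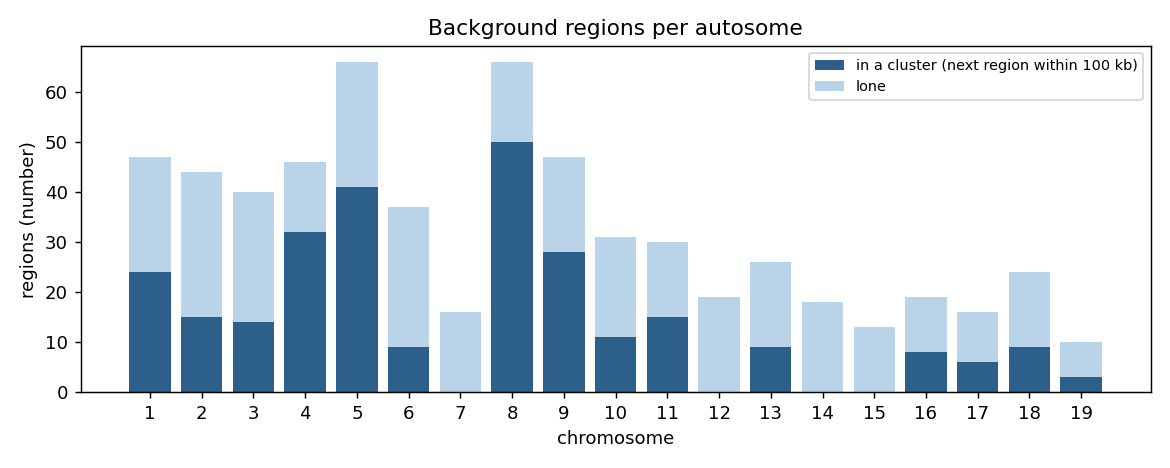
Number of regions on each autosome, split into regions in a cluster (next region within 100 kb) and lone regions. Chromosomes 5 and 8 lead with 66 regions each, of which 41 and 50 were clustered.

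Chromosomes differed mainly through their clusters. Chromosome 8 had 0.514 regions per Mb and chromosome 7 had 0.107. When a cluster was counted once, these densities were 0.140 and 0.107, and over all autosomes they ran from 0.107 to 0.212. Chromosomes 7, 12, 14 and 15 had no cluster. The chromosome starts, which in the mouse lie beside the centromere, were rich in regions. In the first 5 Mb of the listed span of each chromosome lay 63 regions (10.2%), against 3.95% of the span itself. Of regions with Input, 15.6% lay there, and of those with InputMEFs 11.0%. The ChIP lists gave between 3.29% and 3.75% there. The last 5 Mb of each chromosome held 34 regions (5.53%), near the 4.38% to 5.47% of the ChIP lists. Of the 63 regions at the starts, 15 made up the chromosome 9 cluster, 9 lay on chromosome 16 and 8 on chromosome 18. Chromosomes 1, 2, 8 and 10 had none there, and chromosomes 5, 7, 14, 15 and 19 had 1 each.

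The 11 regions of all 3 lists lay on 7 chromosomes, and 4 of them were on chromosome 4. The widest were chr4:3007129-3011746 (4618 bp) and chr18:3007202-3011381 (4180 bp), both at the chromosome start, followed by chr4:145146655-145150205 (3551 bp), chr4:146022248-146025295 (3048 bp) and chr4:145038278-145040755 (2478 bp). The others were chr5:105356129-105357994, chr2:122506735-122508439, chr2:98502271-98503512, chr9:35112393-35113454, chr17:36621228-36622033 and chr13:4560354-4560996, between 1866 and 643 bp wide. Most were in clusters, with 3 lone. A ChIP peak was present at 5 of the 11. SA1-null and wild-type SMC1 both had a peak at the regions of chromosome 9 and at chr2:98502271-98503512. Wild-type SMC1 and SMC3 had one on chromosome 5. SA1-null SA2 had one on chromosome 17, with wild-type SMC3, and one on chromosome 4 with no other antibody.

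Most regions held no ChIP peak at all. Of 615, 488 (79.3%) had none, 56 had a peak of 1 list, 41 of 2 lists and 17 of 3 lists. The share of the autosomes with a peak of any list was not computed. These counts therefore have no background beside them and are not read as a trait of the regions. Background shares are given below for each list. The list with the most regions was SA2 in SA1-null cells, with 68 (11.1%, interval 8.82 to 13.8%), against 0.358% of autosomal tiles. These tiles cut the autosomal span into pieces of 845 bp, the mean region width, and give the background for a stretch of that size. SA2 in wild-type cells had a peak at 43 regions (6.99%, interval 5.23 to 9.29%), against 0.412% of tiles, and SA1 in wild-type cells at 58 (9.43%), against 1.47%. SMC1 had a peak at 30 regions in SA1-null cells (4.88%, tiles 2.64%) and at 23 in wild-type cells (3.74%, tiles 1.39%). SMC3 had a peak at 21 regions in SA1-null cells (3.41%, tiles 2.13%) and at 12 in wild-type cells (1.95%, tiles 0.887%). All 7 shares were above those of the tiles, and the lower interval bounds were too, from 1.12% for wild-type SMC3 to 8.82% for SA1-null SA2. For SA1-null SMC3 the bound was 2.24%, close to the share of tiles. The intervals cover the counting of regions only, and regions of a cluster are not independent of each other. The InputMEFs list carried much of this. Without it the shares were 8.56% and 3.27% for SA2 in SA1-null and wild-type cells and 5.29% for wild-type SA1. They were 2.52% for SA1-null SMC1 and 1.76% for SA1-null SMC3, both below the tiles. For SA1-null SA2, leaving out the SA1-null SA1 list lowered the share about as far, to 8.76%, and leaving out Input raised it to 14.8%.

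Peaks of all 7 ChIP lists were rarer in regions with an Input interval than in regions without one, and those of 6 of the 7 were commoner in regions with an InputMEFs interval than in regions without one. Of 347 regions with an Input interval, SA1-null SA2 had a peak at 16 (4.61%), wild-type SA2 at 4 (1.15%) and wild-type SA1 at 10 (2.88%). Of 268 regions without one, they had a peak at 52 (19.4%), 39 (14.6%) and 48 (17.9%). In the 157 regions of Input alone the SA2 lists had no peak in either genotype, which allows a share of up to 1.91%. The tile shares, 0.358% in SA1-null and 0.412% in wild-type cells, lie below this limit. The missing SA2 peaks therefore do not set these regions apart from the autosomes. Wild-type SA1 had a peak at 1 of the 157 (interval 0.113 to 3.52%), against 1.47% of tiles. The SMC lists, which had not been called against Input, went the same way. The shares were 2.59% and 7.84% for SA1-null SMC1 and 3.17% and 4.48% for wild-type SMC1. For SMC3 they were 2.02% and 5.22% in SA1-null cells and 1.73% and 2.24% in wild-type cells. The wild-type counts were close, 11 and 12 regions for SMC1 and 6 and 6 for SMC3, and their intervals overlapped. The order was reversed for InputMEFs, the input of the SMC lists. Of 391 regions with an InputMEFs interval, SA1-null SMC1 had a peak at 25 (6.39%, interval 4.37 to 9.27%) and wild-type SMC1 at 19 (4.86%). Of 224 regions without one, the counts were 5 (2.23%, interval 0.957 to 5.12%) and 4 (1.79%). SA1-null SMC3 followed with 17 (4.35%) and 4 (1.79%) regions. Wild-type SMC3 had 8 (2.05%) and 4 (1.79%), shares near each other. For the SMC lists the higher share lay mainly in the regions of InputMEFs alone. In these 224 regions, the 156 of both inputs and the 157 of Input alone, SA1-null SMC1 had 8.93%, 1.92% and 2.55%. SA1-null SMC3 had 6.25%, 1.92% and 2.55%, wild-type SMC1 5.36%, 2.56% and 1.91%, and wild-type SMC3 2.68%, 0% and 0.637%. Regions without Input are those of InputMEFs alone or SA1-null SA1 alone, so the splits by Input and by InputMEFs overlap. Among the SA lists, with and without an InputMEFs interval, the shares were 10.7% and 11.6% for SA1-null SA2, 8.70% and 4.02% for wild-type SA2 and 11.8% and 5.36% for wild-type SA1. These differences were not tested, because the lists of a split come from the same libraries and there is 1 list per group. Antibody and input changed together between these SA and SMC lists, so their parts and that of the class of region cannot be told apart.

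**Figure D3:**
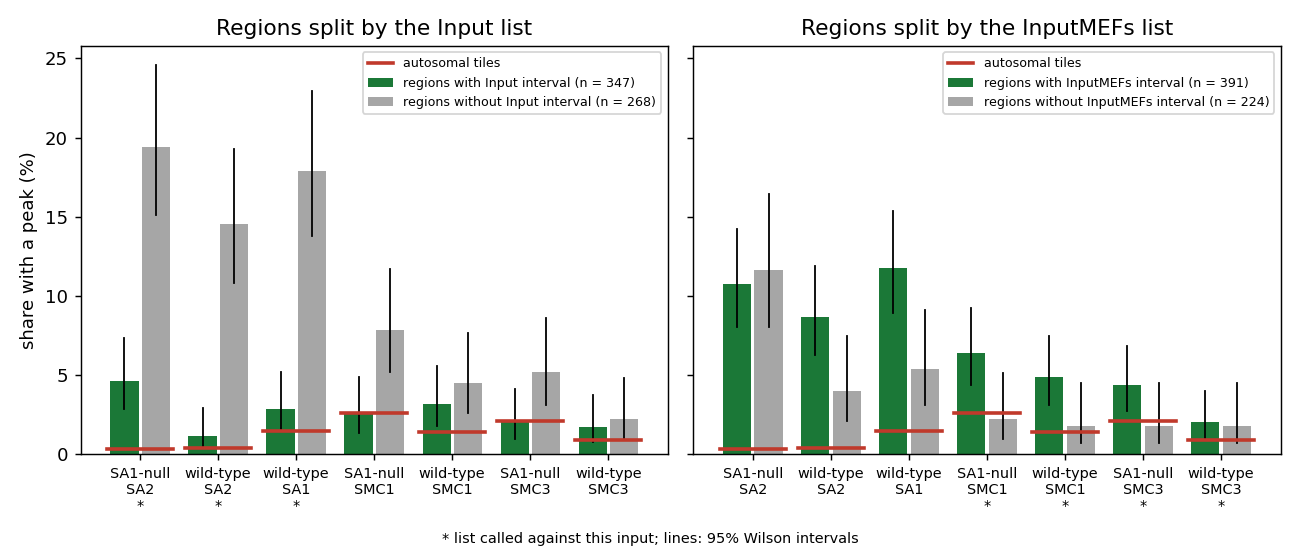
Share of regions with a peak of each ChIP list (bars, with 95% Wilson intervals as lines), split by whether the region holds an Input interval (left) or an InputMEFs interval (right). Red lines give the share of autosomal tiles of 845 bp, and stars mark lists called against that input. SA1-null SA2 had a peak at 4.61% of regions with Input and at 19.4% of those without.

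By bases covered, SA peaks stood out against their own lists and SMC peaks did so less. SA1-null SA2 peaks covered 10.8% of region bases (56.3 kb), against 0.140% of the autosomal span, a ratio of 77.4. A sizeable part came from 4 wide peaks in the chromosome 3 stretch described at the end, which covered 17.6 kb, mostly inside regions. The ratio without that stretch was not computed. The ratio was 24.4 for wild-type SA2 (3.66% against 0.150%) and 8.91 for wild-type SA1 (5.21% against 0.584%). It was 2.70 for SMC1 in SA1-null and 4.49 in wild-type cells, and 2.54 for SMC3 in SA1-null and 4.12 in wild-type cells. The excess was local. In the 1 kb on both sides of the regions SA1-null SA2 covered 0.828% of bases, and between 20 and 100 kb away 0.133%, near its autosomal share. Wild-type SA1 covered 0.893% within 1 kb and 0.601% between 20 and 100 kb, and SA1-null SMC1 1.43% and 1.18%. Very few peaks were involved, from 1.02% of SA1-null SA2 peaks (64 of 6260) to 0.0616% of SA1-null SMC3 peaks (21 of 34099).

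**Figure D4:**
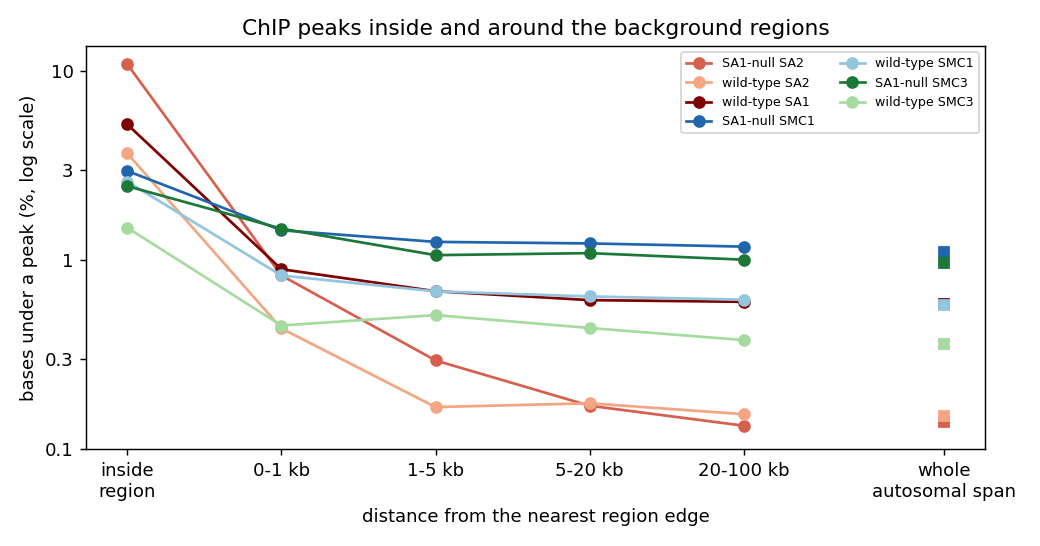
Share of bases under a peak of each ChIP list (log scale) inside the regions, in 4 classes of distance from the nearest region edge, and over the whole autosomal span (squares). SA1-null SA2 stands at 10.8% inside the regions and at 0.133% between 20 and 100 kb away. Part of the 10.8% comes from 4 wide peaks in a single stretch of chromosome 3.

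Peaks inside the regions were wider than other peaks of their list for 6 of the 7 lists. The medians inside and elsewhere were 576 and 528 bp for SA1-null SA2, 529 and 464 bp for wild-type SA2, 665 and 537 bp for SA1-null SMC1 and 684 and 581 bp for wild-type SMC1. For SMC3 they were 767 and 654 bp in SA1-null cells and 672 and 564 bp in wild-type cells. Wild-type SA1 peaks went the other way, with 525 and 535 bp. A wider peak meets a region more easily, and this part of the difference was not separated.

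SA peaks in the regions mostly had no listed SMC peak with them. Of the 127 regions with a ChIP peak, 88 had SA peaks only, 19 SMC peaks only and 20 both. Of the 64 SA1-null SA2 peaks in the regions, 6 overlapped a peak of any SMC list (9.38%, interval 4.37 to 19.0%), against 90.8% of 6196 such peaks elsewhere. For wild-type SA2 the shares were 9.30% of 43 and 70.0% of 7497, and for wild-type SA1 28.8% of 59 (interval 18.8 to 41.4%) and 84.1% of 25778. In the other direction the SMC lists showed no common order. An SA partner was present, in the regions and elsewhere, for 60% of 30 and 45.6% of SA1-null SMC1 peaks, 60.9% of 23 and 72.9% of wild-type SMC1 peaks, 81.0% of 21 and 57.6% of SA1-null SMC3 peaks, and 83.3% of 12 and 85.9% of wild-type SMC3 peaks. Regions with SA peaks only were spread over 18 chromosomes, and 47 of the 88 were InputMEFs regions without Input or SA1-null SA1. The SMC lists had been called against InputMEFs and these SA lists against Input, and depth is unknown. A missing SMC peak therefore need not mean that the ring was absent, and the cause was not tested.

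SA1-null SA2 had a peak at 68 regions and wild-type SA2 at 43, with 21 in common, 47 in SA1-null cells alone and 22 in wild-type cells alone. The lists held 6260 and 7540 autosomal peaks. The regions were chosen in part by a library of SA1-null cells that has no wild-type counterpart among the lists of the rule. The 78 regions with an SA1-null SA1 interval gave 28 and 9, and the 537 other regions gave 40 and 34. Without the stretches on chromosomes 3 and 9 described below, the counts over all regions were 56 and 35. SMC1 had a peak at 30 regions in SA1-null and 23 in wild-type cells, with 18 in common, from lists of 46098 and 23515 peaks. SMC3 had one at 21 and 12 regions, with 7 in common, from lists of 34099 and 15287 peaks. How far the lists of both genotypes overlap over all autosomal peaks was not computed. The counts in common and in a single genotype therefore have no background beside them and are not read as a trait of the regions. With 1 list per group no test between genotypes could be made.

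A peak of 5 or more ChIP lists was present at 10 regions. With 3 SA lists among the 7, SMC peaks at each of them were fixed by that choice. SMC1 of both genotypes, SA1-null SMC3 and wild-type SA1 had a peak at all 10, and wild-type SMC3 at 7. SA2 had one at 3 in SA1-null and 4 in wild-type cells. Of the 10, 9 were intervals of InputMEFs alone, against 36.4% of all regions, and 8 were lone, against 55.4% of all regions. Their widths ran from 412 to 915 bp. The share of the autosomes with peaks of 5 or more lists was not computed, so the count of 10 has no background beside it. Those with 6 lists were chr15:81029817-81030432, chr3:142136967-142137580, chr10:17447705-17448264 and chr1:135949669-135950126. The others were chr5:73282029-73282943, chr14:46042634-46043529, chr18:38067343-38068164, chr6:143168032-143168443, chr8:20020069-20020692 and chr6:3133492-3134328. The last of these was the only one of the 10 held by Input, and the chromosome 8 region was the only one inside the largest cluster. No region had peaks of all 7 lists. Just below 5 lists, 3 regions had peaks of wild-type SA1, SMC1 of both genotypes and SA1-null SMC3.

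Regions with an SA1-null SA1 interval held a ChIP peak most often, at 38 of 78 (48.7%), against 36 of 347 (10.4%) with Input and 89 of 391 (22.8%) with InputMEFs. These sets share regions, and no background share was computed for a peak of any list. In the same order the median widths were 773, 622 and 643 bp, and a wider region has more room for a peak. Of the 78 regions, SA1-null SA2 had a peak at 28 and wild-type SA2 at 9. SMC1 had one at 3 in SA1-null and 4 in wild-type cells, and SMC3 at 0 and 5. Of the 38 regions, 15 lay in 2 stretches that were singled out after their values were seen, and outside these stretches 23 of 60 regions (38.3%, interval 27.1 to 51.0%) had a ChIP peak. Of the 44 regions of SA1-null SA1 alone, 24 (54.5%, interval 40.1 to 68.3%) had a ChIP peak, and 18 of the 44 lay in these stretches. Of the 26 elsewhere, 9 had a ChIP peak. Wild-type SA1 had a peak at 11 of the 78 regions with an SA1-null SA1 interval, all 11 among the regions of that list alone, and 8 of the 11 lay in the chromosome 9 stretch.

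The first stretch, chr3:25416251-25456540, was nearly filled by SA1-null SA1. Its 10 intervals covered 36.3 of 40.3 kb (90.1%), the widest was 10631 bp, and gaps between them ran from 12 to 2350 bp. Neither input had an interval there. SA2 of SA1-null cells had 4 peaks in the stretch, of 5308, 4588, 4115 and 3634 bp, which ranked 1, 2, 5 and 6 by width in its autosomal list and overlapped 7 of the 10 regions. No peak of any wild-type list lay there, and none of SMC1 or SMC3 of SA1-null cells. Both SA lists of SA1-null cells had intervals there, and the ring lists of SA1-null cells had none. The SA2 list had been called against Input, and the SA1 and ring lists against InputMEFs. The cause was not tested.

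The second stretch, chr9:100686566-100855011, held 8 narrow SA1-null SA1 intervals of 514 to 1418 bp over 168 kb, and no input interval. The first lay 100441 bp before the next, just over the 100 kb used for chaining. By that rule it was lone and the other 7 formed a cluster. SA1-null SA2 had a peak at 5 of the 8, wild-type SA2 at all 8 and wild-type SA1 at all 8, and none had one of SMC1 or SMC3 in either genotype. The SA peaks were dense around them too. The stretch held 9 SA1-null SA2 peaks, 12 wild-type SA2 peaks and 15 wild-type SA1 peaks. These are 53.4, 71.2 and 89.0 per Mb, against 2.60, 3.13 and 10.7 per Mb over the autosomes. The stretch was chosen after its values were seen and ends at its own intervals, so part of this contrast follows from that choice. Only 1 of these SA peaks, a wild-type SA1 peak, overlapped an SMC peak. Over all autosomes, 166 of 5249 wild-type SA1 peaks with a wild-type SA2 peak had no peak of any SMC list (3.16%), and 10 of the 166 lay in this stretch. The SA1-null SA1 list and the SMC lists had been called against the same input. Stag1, the gene of SA1, is on mouse chromosome 9, but an mm9 annotation was not used here, and whether the stretch lies in this gene was not tested.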

How the data were processed

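The authors deposited 10 interval lists with 3 columns (chromosome, start, end) and no score, count or signal column. The submitters' processing notes name mm9 and CASAVA 1.7. Intervals reached past the last gene of a GRCm38.p6 table on 10 of 20 chromosomes, so the lists were read as mm9. Per the labels' protocols, fragments of 100 to 200 bp were amplified by 14 PCR cycles. The deposited names give the input used and a false discovery rate of 10 with no fold minimum. The sources used here give neither the peak caller nor how the input lists were made.

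Starts were read as 0-based. Intervals within a list did not overlap each other. An overlap of 1 bp counted as shared, and regions up to 100 kb apart were chained. Python 3.11.15, numpy 2.4.6 and scipy 1.17.1 were used. The functions were tested on simulated data, and counts of regions with a peak equalled those of bedtools 2.31.1 for 7 of 7 lists. Depth is unknown, and Wilson intervals and the limit from a count of 0 (3 counts) cover counting only. Members, lists and settings were chosen with earlier results of these data known. Positions were named by rule: regions of all 3 lists, the 10 widest, the 5 clusters with the most intervals and regions with 5 or more ChIP lists. With no mm9 genome or annotation used here, no genes or sequences are given. Alternatives were other joining, chaining and overlap settings, wider regions, and leaving out lists, chromosomes or stretches.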

Additional observations from a re-analysis of the deposited data

Results flagged for a closer look

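Chromosome X, which the autosomal regions leave out, held 125 regions formed in the same way from the same 3 lists. Of these, 97 held an SA1-null SA1 interval (55.4% of all such regions on autosomes and X), 78 an Input interval and 26 an InputMEFs interval. Shared regions numbered 72, and 109 lay in 18 clusters at up to 100 kb. SA1-null SA2 had a peak at 31 of the 125 and wild-type SA2 at 1, wild-type SA1 at 3, SMC1 at 0 in SA1-null and 2 in wild-type cells, and SMC3 at 0 in SA1-null and 10 in wild-type cells. On chromosome X the lists held 92 SA1-null SA2, 201 wild-type SA2 and 765 wild-type SA1 peaks. SMC1 had 905 in SA1-null and 485 in wild-type cells, and SMC3 703 and 277. No background share was computed for chromosome X. The 97 regions with an SA1-null SA1 interval were chosen through a library that has no wild-type counterpart in the rule. Embryo sex is not among the labels, and no cause was tested.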

How the results depend on the processing

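Of 89 alternative values for 10 results, 70 stayed within the interval of the value reported (within 1.5 times for the number of regions) and 19 did not. No paired analysis was possible because each group has 1 list. Leaving out 1 of the 3 lists at a time gave 397 to 571 regions, a shared part of 2.40 to 29.2% and a clustered part of 41.9 to 48.3%. For regions with a peak, in SA1-null and then wild-type cells, it gave 8.56 to 14.8% and 3.27 to 9.39% for SA2, 2.52 to 5.68% and 2.77 to 4.37% for SMC1, and 1.76 to 3.71% and 1.51 to 2.40% for SMC3, and for wild-type SA1 5.29 to 12.4%. Regions extended by 1 kb gave 9.43% and 6.50% for SMC1 and 6.50% and 3.58% for SMC3 in the same order. Regions at or over the median width gave 3.57% for wild-type SMC3. With chromosome X, 35.4% were shared, and with chaining up to 500 kb, 55.0% were clustered. Fewer lists, wider windows and longer chaining change these values by construction. For chromosome X and for region width the cause was not tested. Joining up to 10 kb gave 451 regions. Leaving out the chromosome 3 and 9 stretches (added after the data were seen) gave 9.38% for SA1-null SA2. Depth is unknown, so weak signal in a region cannot be told from none.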
